A study of Mus musculus with 6 samples.

Results

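The 10 genes described here are Hmox1, its regulators Nfe2l2 (encoding NRF2), Keap1 and Bach1, and the NRF2 target genes Nqo1, Gclc, Gclm, Txnrd1, Srxn1 and Slc7a11. They were taken by gene name from a table of 22880 genes, in which each occurred once, and all 10 passed the filter on low counts. They were selected on log2 fold changes of the present comparison that were already known. Their differences between the groups are therefore given as a description with standard errors, without p-values for single genes. The counts that passed a criterion are given beside those of all genes in the main test. Counts by p and fold change without a single library stand without an all-gene count. The data come from MC-38GFP cells, a mouse colon adenocarcinoma line that expresses green fluorescent protein (GFP), grown as orthotopic tumors in the cecum wall of C57BL/6J mice from cells injected in Matrigel. Tumor cells that were CD45-negative, CD31-negative and GFP-positive were sorted, and their polyadenylated RNA was sequenced. The 3 Mock libraries come from control cells and the 3 HIF-1α-KD libraries from cells with a knockdown of HIF-1α, the oxygen-regulated subunit of the transcription factor HIF-1. Both groups carry a transduction with pLKO.1-puro, a lentiviral vector for short hairpin RNA with puromycin resistance, and neither had been passaged in vivo. Neither the age and sex of the mice, nor whether a library holds the cells of 1 tumor, nor whether the knockdown cells are a clone, is given in the sources used here, so the spread between libraries may be partly technical.

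Heme oxygenase 1, the product of Hmox1, opens the heme ring and releases iron, carbon monoxide and biliverdin, and its gene is among the most inducible of the oxidative stress response. NRF2 is held in the cytoplasm and marked for degradation by KEAP1 until oxidants or electrophiles modify KEAP1, after which it pairs with small MAF proteins on antioxidant response elements (AREs), sites that BACH1 occupies as a repressor until heme binds it. Hmox1 is known both as an NRF2 target and as a HIF-1 target, whereas the glutathione and thioredoxin genes among the 10 are known chiefly as NRF2 targets, so the comparison asks whether Hmox1 and those targets differ together when HIF-1α is reduced.

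Reads on genes were between 19845852 and 30809139 per library. Values are normalized counts, the reads of a gene divided by 1 factor per library, unless FPKM (the reads of a gene scaled to its length and to the reads of the library) is named, and a log2 fold change is HIF-1α-KD minus Mock on log2 of the normalized count plus 1. The targeted gene Hif1a had 6914, 5424 and 4945 normalized counts in Mock replicates 1 to 3, and 697.3, 3142 and 1928 in HIF-1α-KD replicates 1 to 3. HIF-1α-KD libraries thus lay below all Mock libraries, with a wide range among themselves. The summed FPKM of 8 colon epithelial markers was between 1.38 and 14.6 in Mock and between 1.65 and 3.13 in HIF-1α-KD cells, highest in Mock replicate 3, so defining epithelial genes such as Cdx2 and Epcam were near 0 in cells labelled as a colon carcinoma line. The leukocyte markers stood apart in HIF-1α-KD replicate 3, and their values are given beside Hmox1.

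Hmox1 (ENSMUSG00000005413; GRCm38 chromosome 8, 75093621 to 75100589, plus strand) was the most abundant of the 10 genes in Mock cells, and the only one whose groups did not overlap. It had 11590, 6914 and 7116 normalized counts in Mock replicates 1 to 3. In HIF-1α-KD replicates 1 to 3 it had 1757, 1433 and 2982. All Mock libraries thus lay well above all HIF-1α-KD libraries, among which replicate 3 was the highest. The group means were 8540 ± 2643 in Mock and 2057 ± 817 in HIF-1α-KD cells (SD, n = 3), and the log2 fold change was -2.08 with a standard error of 0.29, which is 4.23-fold lower. By log2 fold change it ranked 42 from the lowest of the 12014 genes tested. Leaving out a single library left it between -2.38, without HIF-1α-KD replicate 3, and -1.84, without Mock replicate 1.

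Per length, Hmox1 was at 469.2, 299.0 and 289.3 FPKM in Mock replicates 1 to 3, a level above 97.5% of the tested genes. It was at 73.64, 62.53 and 130.5 FPKM in HIF-1α-KD replicates 1 to 3. The Mock mean was 352.5 ± 101.2 FPKM (SD, n = 3), and the next of the 10 genes, Srxn1, was at 71.0 ± 14.7 FPKM in Mock cells. In HIF-1α-KD cells the FPKM ranges of Hmox1 and Srxn1 overlapped, and Hmox1 lay below Srxn1 in replicates 1 and 2.

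**Figure D1:**
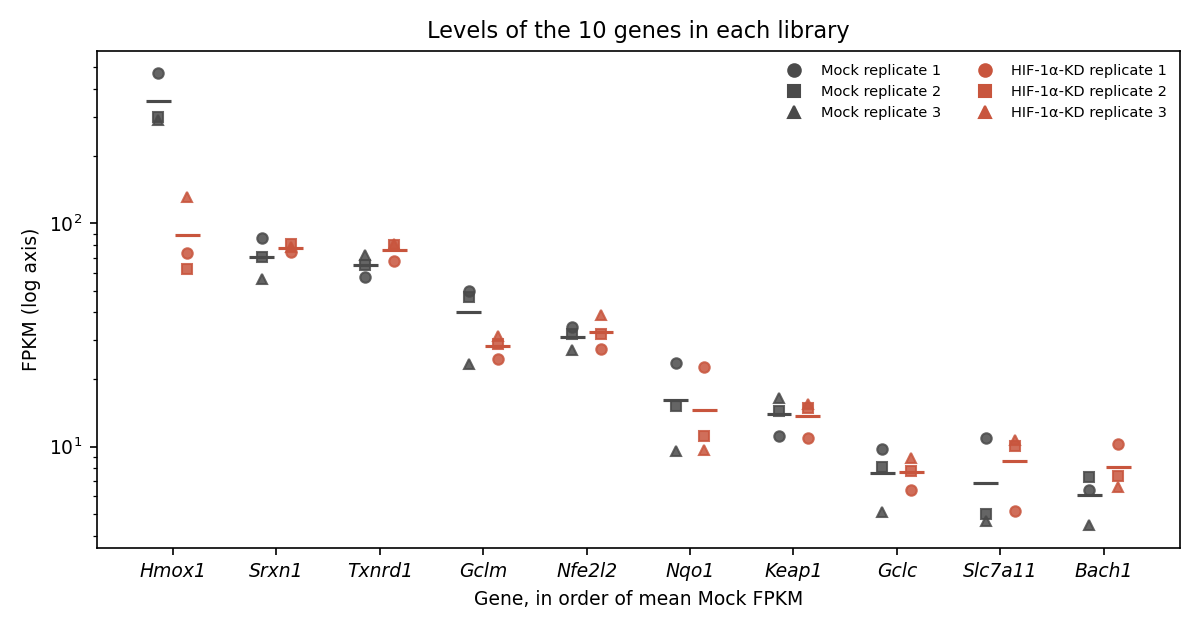
FPKM of the 10 genes (log axis) in each of 3 Mock (grey) and 3 HIF-1α-KD (red) libraries, with symbols for the replicates and short lines for group means. Hmox1 is the only gene whose 3 grey points all lie above its 3 red points; the other 9 genes overlap.

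The regulators of NRF2 overlapped between the groups. Nfe2l2 (ENSMUSG00000015839; chromosome 2, 75675513 to 75704641, minus strand) had 1719, 1500 and 1349 normalized counts in Mock replicates 1 to 3. In HIF-1α-KD replicates 1 to 3 it had 1323, 1490 and 1811. The spans of the groups nearly coincided, and the log2 fold change was 0.01 with a standard error of 0.17.

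Keap1, the adaptor that hands NRF2 to a CUL3 ubiquitin ligase (ENSMUSG00000003308; chromosome 9, 21229730 to 21239361, minus strand), had 706.6, 862.2 and 1042 normalized counts in Mock replicates 1 to 3. It had 673.2, 875.3 and 909.1 in HIF-1α-KD replicates 1 to 3, a log2 fold change of -0.08 with a standard error of 0.20. In both groups replicate 1 held the lowest and replicate 3 the highest value.

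Bach1, the heme-sensitive repressor (ENSMUSG00000025612; chromosome 16, 87698945 to 87733346, plus strand), had 471.5, 503.4 and 326.1 normalized counts in Mock replicates 1 to 3. It had 733.5, 504.8 and 447.0 in HIF-1α-KD replicates 1 to 3. HIF-1α-KD replicates 1 and 2 lay above every Mock library, the latter by a narrow margin, and HIF-1α-KD replicate 3 below 2 of them, and the log2 fold change of 0.36 had a standard error of 0.25. The FPKM ratio of Bach1 to Nfe2l2, repressor to activator, was between 0.165 and 0.229 in Mock and between 0.169 and 0.378 in HIF-1α-KD cells, and the ratio of Nfe2l2 to Keap1 overlapped as well. These ratios compare transcripts and not the proteins, whose stability is the known point of control for NRF2.

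**Figure D2:**
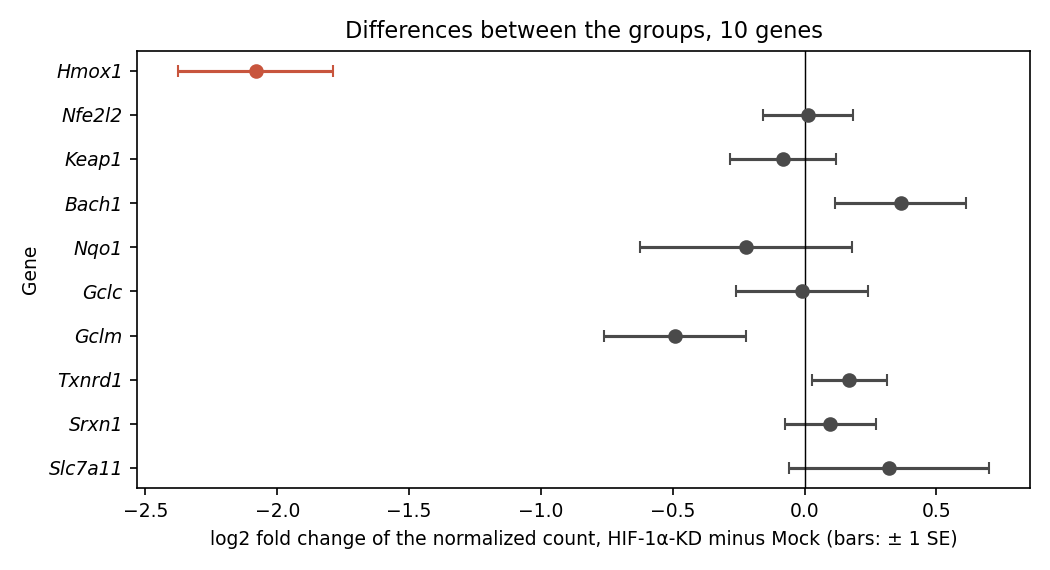
Log2 fold change of the normalized count, HIF-1α-KD minus Mock, of each of the 10 genes (points) with 1 standard error to each side (bars; 3 libraries per group). Hmox1 lies at -2.08, and the other 9 lie between -0.49 and 0.36.

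Of the 6 NRF2 targets, 2 encode the subunits of glutamate-cysteine ligase, which makes the first bond of glutathione: Gclc the catalytic and Gclm the modifier subunit. Gclc (ENSMUSG00000032350; chromosome 9, 77754535 to 77794485, plus strand) had 860.5, 663.2 and 443.3 normalized counts in Mock replicates 1 to 3. It had 542.1, 630.7 and 725.4 in HIF-1α-KD replicates 1 to 3, all inside the Mock range, with a log2 fold change of -0.01 and a standard error of 0.25.

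Gclm (ENSMUSG00000028124; chromosome 3, 122245557 to 122270732, plus strand) came closest to Hmox1 in direction. It had 1845, 1614 and 863.7 normalized counts in Mock replicates 1 to 3. In HIF-1α-KD replicates 1 to 3 it had 883.9, 984.4 and 1066. Mock replicates 1 and 2 lay above all HIF-1α-KD libraries and Mock replicate 3 below all of them, so the log2 fold change of -0.49 (standard error 0.27) rested on which Mock libraries were used: it was -0.82 without Mock replicate 3 and -0.28 without Mock replicate 1.

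The FPKM ratio of Gclm to Gclc was 5.09, 5.78 and 4.63 in Mock replicates 1 to 3. It was 3.87, 3.71 and 3.49 in HIF-1α-KD replicates 1 to 3. This was the only 1 of 5 ratios computed between genes other than Hmox1 whose groups did not overlap, Mock replicate 3 included, in which both subunit genes were low. The ratios of Srxn1 and of Txnrd1 to Nqo1, of Bach1 to Nfe2l2 and of Nfe2l2 to Keap1 overlapped. Among single genes, 8.75% of those tested lay lower and 10.4% higher without overlap, so nothing is read from this count.

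Slc7a11 encodes the cystine importer xCT, which supplies cysteine for glutathione (ENSMUSG00000027737; chromosome 3, 49892526 to 50443614, minus strand). It had 1006, 432.6 and 425.2 normalized counts in Mock replicates 1 to 3. It had 459.3, 860.9 and 912.5 in HIF-1α-KD replicates 1 to 3. Mock replicate 1 was the highest library of all 6, the other two Mock libraries were the lowest, and the log2 fold change of 0.32 had a standard error of 0.38.

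Txnrd1 encodes cytosolic thioredoxin reductase (ENSMUSG00000020250; chromosome 10, 82833951 to 82897712, plus strand). It had 5060, 5370 and 6302 normalized counts in Mock replicates 1 to 3 and 5723, 6540 and 6522 in HIF-1α-KD replicates 1 to 3. The libraries of the HIF-1α-KD group lay within 1.14-fold of each other, and the log2 fold change was 0.17 with a standard error of 0.14.

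Srxn1 encodes sulfiredoxin, which restores overoxidized peroxiredoxins (ENSMUSG00000032802; chromosome 2, 152105516 to 152111376, plus strand). It had 2665, 2048 and 1748 normalized counts in Mock replicates 1 to 3. The HIF-1α-KD libraries, at 2230, 2337 and 2241, fell within that range, and the log2 fold change was 0.10 with a standard error of 0.17.

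Nqo1 encodes a quinone reductase that is widely used as a readout of NRF2 (ENSMUSG00000003849; chromosome 8, 107388225 to 107403206, minus strand). It had 946.7, 568.4 and 379.3 normalized counts in Mock replicates 1 to 3 and 873.5, 412.5 and 356.9 in HIF-1α-KD replicates 1 to 3. The highest value was 2.50-fold the lowest within Mock and 2.45-fold within HIF-1α-KD cells, replicate 1 was the highest in both, and the log2 fold change of -0.22 had a standard error of 0.40. It was 0.12 without Mock replicate 1, 0.03 without HIF-1α-KD replicate 3, -0.62 without HIF-1α-KD replicate 1 and -0.54 without Mock replicate 3. Leaving out a single library also turned the sign for Nfe2l2, Keap1, Gclc and Srxn1, which stayed between -0.27 and 0.26, and Slc7a11 ranged from 0.11 without Mock replicate 3 to 0.73 without Mock replicate 1.

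Over the 10 genes, 5 log2 fold changes were below and 5 above zero, with a median of 0.00, and over all 12014 tested genes the median was 0.02. At an adjusted p under 0.05 in limma, 1 of the 10 genes (Hmox1) was called, where 0.391% of all tested genes were, and without a single library the call held only when HIF-1α-KD replicate 3 was the one left out. At an unadjusted p under 0.05 with a fold change of at least 1.5, 1 of the 10 was lower, where 3.46% of all tested genes were, and none was higher, where 4.02% were. Groups without overlap had 1 of the 10 with HIF-1α-KD cells lower, where 8.75% of tested genes lay that way, and none with HIF-1α-KD cells higher, where 10.4% did. Since these genes were chosen with this contrast known, nothing is read from those counts.

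Set against the targets within each library, Hmox1 was lower in HIF-1α-KD cells relative to every one of the 6. Log2 Hmox1 minus the median log2 of the 6 targets was 3.09, 2.74 and 3.52 in Mock replicates 1 to 3. It was 1.00, 0.64 and 1.60 in HIF-1α-KD replicates 1 to 3. A difference within a library does not depend on the scaling between libraries, and the group means of this difference were -2.04 apart. For single targets the same value was between -1.59 (Gclm) and -2.40 (Slc7a11), and for all 6 the groups did not overlap. The 6 values share the same Hmox1 counts, and the genes were chosen with this contrast known. Set against targets that changed little, they restate the Hmox1 difference and are not 6 separate results. The normalized counts of Hmox1 separated the groups, and those of none of the 6 targets did.

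**Figure D3:**
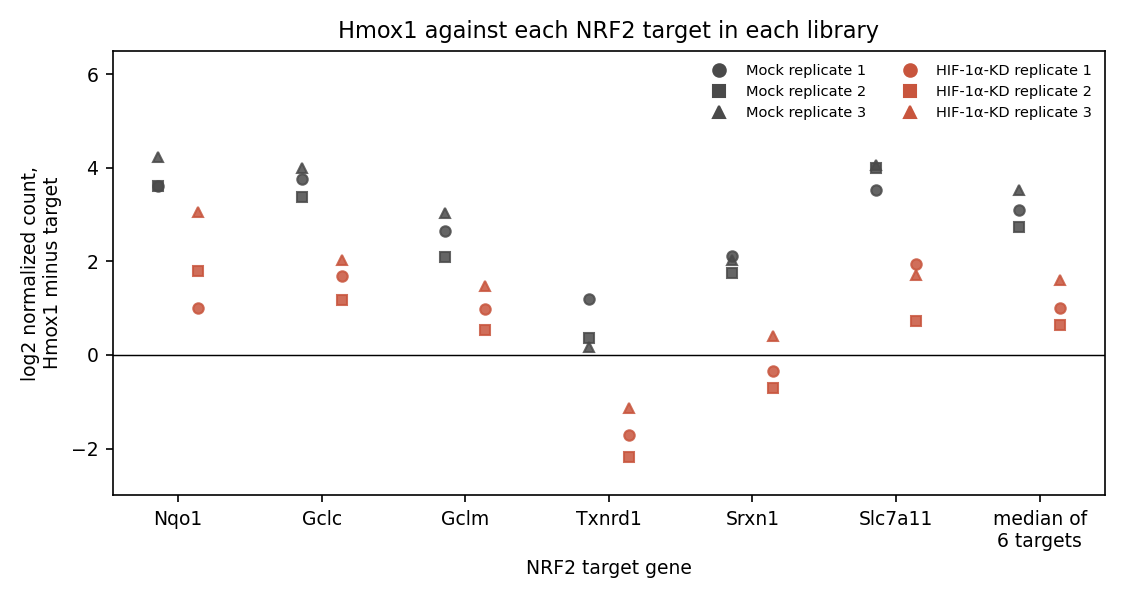
Log2 normalized count of Hmox1 minus that of each NRF2 target, and of the median of the 6 targets, in each of 3 Mock (grey) and 3 HIF-1α-KD (red) libraries. For every target the 3 grey points lie above the 3 red points; against Txnrd1 all grey points lie above zero and all red points below it.

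Within the Mock group the targets had a spread of their own. Mock replicate 1 held the highest Mock value for 7 of the 10 genes and Mock replicate 3 the lowest for 7, Nqo1, Gclc, Gclm, Srxn1, Slc7a11 and Nfe2l2 among both. Hmox1 was highest in Mock replicate 1 as well, and its values in Mock replicates 2 and 3 were close, with replicate 2 the lower by normalized count and replicate 3 the lower by FPKM. The highest Mock value was 2.50-fold the lowest for Nqo1, 2.37-fold for Slc7a11, 2.14-fold for Gclm and 1.94-fold for Gclc, against 1.68-fold for Hmox1, while Srxn1, at 1.52-fold, and Txnrd1 were below Hmox1. The median log2 normalized count of the 6 targets was 10.41, 10.02 and 9.28 in Mock replicates 1 to 3, and 9.78, 9.85 and 9.95 in HIF-1α-KD replicates 1 to 3. The HIF-1α-KD libraries thus lay inside the Mock range for the targets as a group.

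Levels per length placed the 10 genes, by mean Mock FPKM, in the order Hmox1, Srxn1 (71.0), Txnrd1 (65.1), Gclm (40.0), Nfe2l2 (31.0), Nqo1 (16.2), Keap1 (14.02), Gclc (7.65), Slc7a11 (6.86) and Bach1 (6.05). Mock ranges of neighbours were apart between Hmox1 and Srxn1, Txnrd1 and Gclm, Nfe2l2 and Nqo1, and Keap1 and Gclc. The other neighbours in that order did not differ beyond their spread. In HIF-1α-KD cells the ranges of the same neighbours were apart, except for Hmox1 and Srxn1.

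The profile of Hmox1 was compared with that of every other tested gene by the root mean square difference of log2 values over the 6 libraries, each profile centred on its mean. The nearest genes were Dhrs3 (0.20), a retinal reductase, Epm2a (0.31), the glycogen phosphatase laforin, Ero1l (0.31), an endoplasmic reticulum oxidase that is a known HIF-1 target, Frat2 (0.34) and Ciart (0.35), a clock repressor. Dhrs3 had 746.0, 514.9 and 454.2 normalized counts in Mock replicates 1 to 3, against 164.1, 91.13 and 222.9 in the HIF-1α-KD libraries, with the highest value of each group in the same library as for Hmox1. Of the other 9 genes, Gclm was the nearest at rank 689 of 12013 (0.88), and Bach1 the farthest at rank 9859 (1.33). The median over all genes was 1.16, and because the libraries fall into 2 groups the measure mostly reflects the difference between them.

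Promoter sequence was available for 8 of the 10 genes in RefSeq tables on GRCm38.p6, from 250 bases before to 50 after each transcript start. Hmox1 and Gclc had no entry. Windows were searched on both strands for the ARE cores TGACNNNGC and TGAGNNNGC and for the hypoxia response element (HRE) cores ACGTG and GCGTG. An ARE core occurred in 27.8% and an HRE core in 43.8% of 32851 promoters. The 4 targets with an ARE core in a window are printed as examples of these letters. A core that 27.8% of promoters hold is not shown to be a bound site, and without a promoter of Hmox1 no contrast with it can be made. Capitals mark the ARE cores, and sequences run in the direction of the gene. They lie at chr2:152105274-152105573 (Srxn1, plus strand), chr3:122245307-122245606 (Gclm, plus strand), chr10:82858956-82859255 (Txnrd1, plus strand, second of 3 promoters) and chr3:50443564-50443863 (Slc7a11, minus strand).
Srxn1: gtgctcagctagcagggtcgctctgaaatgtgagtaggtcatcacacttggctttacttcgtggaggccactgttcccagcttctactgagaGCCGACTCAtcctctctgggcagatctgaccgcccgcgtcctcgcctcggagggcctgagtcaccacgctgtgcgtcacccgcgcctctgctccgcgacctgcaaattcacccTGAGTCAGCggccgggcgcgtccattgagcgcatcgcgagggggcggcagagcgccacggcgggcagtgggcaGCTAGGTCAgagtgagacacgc
Gclm: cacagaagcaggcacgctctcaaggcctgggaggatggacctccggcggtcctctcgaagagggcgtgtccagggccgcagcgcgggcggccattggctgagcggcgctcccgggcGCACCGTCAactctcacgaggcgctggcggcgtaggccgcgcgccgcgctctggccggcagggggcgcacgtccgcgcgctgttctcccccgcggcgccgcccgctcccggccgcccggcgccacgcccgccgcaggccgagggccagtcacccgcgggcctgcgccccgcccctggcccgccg
Txnrd1: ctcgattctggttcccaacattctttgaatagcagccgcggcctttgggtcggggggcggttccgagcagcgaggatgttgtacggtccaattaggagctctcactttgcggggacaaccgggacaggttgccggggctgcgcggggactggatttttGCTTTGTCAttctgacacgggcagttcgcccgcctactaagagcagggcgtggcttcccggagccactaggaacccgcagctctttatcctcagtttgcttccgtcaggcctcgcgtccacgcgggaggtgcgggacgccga
Slc7a11: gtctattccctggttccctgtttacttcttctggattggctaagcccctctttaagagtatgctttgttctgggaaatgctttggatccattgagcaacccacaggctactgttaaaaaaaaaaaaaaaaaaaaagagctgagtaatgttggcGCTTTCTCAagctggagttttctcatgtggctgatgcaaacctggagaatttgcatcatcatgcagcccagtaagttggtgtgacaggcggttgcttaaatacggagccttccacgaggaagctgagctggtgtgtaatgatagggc

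Srxn1 held 3 ARE cores, starting at positions -158, -45 and 29 from the transcript start, the most of these windows. Gclm held 1 at position -134, Txnrd1 1 at position -92 and Slc7a11 1 at position -97. HRE cores numbered 4 in Gclm, 3 in Keap1, 3 in Bach1, 2 in Srxn1, 2 in this Txnrd1 window and 0 in Slc7a11, Nqo1 and Nfe2l2. No ARE core overlapped an HRE core. Nqo1, Keap1 and Bach1 had no ARE core in their windows, and Nfe2l2 had 1 at position -240 of an entry that could not be matched to an annotated transcript start. A letter match is a description of the sequence, and sites outside the windows were not searched.

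The wider set of NRF2 targets, 46 genes outside the 10, had more genes below than above zero, 27 against 13. All tested genes had 5682 below and 6332 above zero. On the log2 scale 31 of the 40 tested lay within 0.5 of zero, a share that was not computed for all genes. Of 40 tested, 4 were lower and 1 higher at an unadjusted p under 0.05 with a fold change of at least 1.5, which is 10% and 2.50% of them against the 3.46% and 4.02% of all tested genes. Their median log2 fold change was -0.15, and 9 lay lower and 4 higher without overlap of the groups (22.5% and 10% of the list, against 8.75% and 10.4% of all tested genes). The median was -0.05 without Mock replicate 1 and -0.31 without Mock replicate 3. At an adjusted p under 0.05 none of the 40 was called in limma or by the quasi-likelihood test of edgeR. DESeq2 called 4 of them, against 283 of all 12014 tested genes. At an unadjusted p under 0.05 in limma there were 8 of 40, against 1529 of all 12014.

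Ephx1, microsomal epoxide hydrolase, had 198.2, 169.4 and 187.2 normalized counts in Mock replicates 1 to 3, against 77.21, 75.54 and 64.69 in the HIF-1α-KD libraries (log2 fold change -1.34, standard error 0.23, adjusted p = 0.0697). Nampt, which makes the NAD precursor nicotinamide mononucleotide, had a log2 fold change of -0.87 with a standard error of 0.19. Ftl1, the ferritin light chain that stores iron, was at -0.70 with a standard error of 0.17, and its many near-identical copies make its reads uncertain. Ugdh, which makes UDP-glucuronic acid, was at -0.69 with a standard error of 0.16. Aox1, an aldehyde oxidase named after its value was seen, was the gene that was higher, at 0.78 with a standard error of 0.25.

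Of 23 partners and regulators of NRF2 outside the 10, 20 were tested, and 2 were lower (10%, against 3.46% of all tested genes) and none higher (4.02% of all) by p and fold change. The higher count was 4 without Mock replicate 2, and 2 without HIF-1α-KD replicate 2 or HIF-1α-KD replicate 3. Cdkn1a, the p21 protein that can bind NRF2 and shield it from KEAP1, fell from 1735, 1238 and 2119 normalized counts in Mock to 604.0, 484.4 and 544.1 in HIF-1α-KD replicates 1 to 3 (log2 fold change -1.61, standard error 0.21, adjusted p = 0.0245). It is better known as a cell-cycle inhibitor. Maff, one of the small MAF partners, had 696.8, 474.7 and 814.2 normalized counts in Mock replicates 1 to 3, against 260.6, 261.4 and 318.8 after the knockdown (log2 fold change -1.21, standard error 0.23). The median of the 20 was 0.05.

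In the heme pathway, with 25 of 27 listed genes in the table and all of those tested, the median log2 fold change was -0.03. The constitutive heme oxygenase Hmox2 was at -0.09, the biliverdin reductases Blvra and Blvrb at -0.16 and -0.11, and the rate-limiting synthesis enzyme Alas1 at 0.00, all with overlapping groups. By p and fold change 2 genes (8%, against 3.46% of all tested genes) were lower and none higher (4.02% of all): the exporter Abcg2 (log2 fold change -1.41, standard error 0.42) and the erythroid synthase Alas2 (-2.86, standard error 1.15), whose groups overlapped at low counts. The lower count was 1 without Mock replicate 1, HIF-1α-KD replicate 1 or HIF-1α-KD replicate 2, and 1 gene was higher without HIF-1α-KD replicate 3. At an adjusted p under 0.05 no gene of the list was called in limma or edgeR, and 1 of 25 in DESeq2, against 283 of all 12014 tested genes. At an unadjusted p under 0.05 in limma there were 3 of 25, against 1529 of all 12014.

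Glutathione, thioredoxin, peroxide and superoxide enzymes (35 tested of 37) had a median log2 fold change of -0.13. Of the 35, 32 lay within 0.5 of zero, a share that was likewise not computed for all genes. By p and fold change 1 was lower, the thioredoxin inhibitor Txnip (-0.91, standard error 0.28), and 1 higher, the methionine sulfoxide reductase Msrb2 (1.65, standard error 0.62), at no more than 27.58 normalized counts in any library. Each is 2.86% of the list, below the 3.46% and 4.02% of all tested genes. Without Mock replicate 3 these counts were 3 and 3, and the higher count was 2 without HIF-1α-KD replicate 1 and 0 without Mock replicate 1, HIF-1α-KD replicate 2 or HIF-1α-KD replicate 3. ATF4 targets, which share Slc7a11 with NRF2 as a known target, had a median of 0.14 over 22 genes, with Ddit4 lower (-0.89, standard error 0.17) and Fgf21 higher (1.29, standard error 0.51), each 4.55% of the list and near the background shares. The ATF4 median was 0.26 without Mock replicate 3, 0.21 without HIF-1α-KD replicate 2 and 0.09 without Mock replicate 2. Leaving out a single library gave between 1 and 3 lower and between 0 and 3 higher ATF4 targets, with 3 lower without HIF-1α-KD replicate 3, 2 lower without Mock replicate 1, 3 higher without Mock replicate 3, 2 higher without HIF-1α-KD replicate 2, and 0 higher without Mock replicate 1, Mock replicate 2 or HIF-1α-KD replicate 3. No gene of either list was called at an adjusted p under 0.05 in limma or edgeR. DESeq2 called 1 of each, against 283 of all 12014 tested genes. In limma 3 of 35 and 4 of 22 genes had an unadjusted p under 0.05, against 1529 of all 12014.

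Of 24 HIF-1 targets, 20 (83.3%, against 3.46% of all tested genes) were lower by p and fold change. None was higher (4.02% of all), and the median log2 fold change was -1.33. At an adjusted p under 0.05, 12 of the 24 were called in limma (against 0.391% of all). In edgeR 12 were called, against 47 of all 12014 tested genes, and in DESeq2 17, against 283. Without Mock replicate 3 or HIF-1α-KD replicate 2 no gene of the table was called at an adjusted p under 0.05 in limma, and 18 and 19 of the 24 were then lower by p and fold change. Bnip3, a mitophagy receptor, was at -2.70 (standard error 0.25), Ankrd37 at -2.60 (standard error 0.35) and Ero1l at -1.98 (standard error 0.24). The value of Hmox1 lies between those of Ankrd37 and Ero1l. Lists taken from Gene Ontology annotations in the table had medians of -0.07 for the response to oxidative stress (85 genes tested), -0.17 for glutathione metabolism (28), -0.04 for redox homeostasis (50) and 0.00 for heme terms (27). Of these genes, Ero1l was the 1 called at an adjusted p under 0.05 in limma. Among genes annotated to the oxidative stress response, 3 (3.53%, against 3.46% of all tested genes) were lower by p and fold change: Ptgs2 (-0.95), Map2k1 (-0.80) and Txnip. More genes, 6 (7.06%, against 4.02% of all), were higher. In the glutathione list none was lower or higher by that criterion, with no gene at an unadjusted p under 0.05, and its most abundant genes Gpx4 and Gstp1 were at -0.23 and -0.13.

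Without a single library the medians of 3 further lists stayed near zero: -0.02 (without HIF-1α-KD replicate 1) to 0.10 (without Mock replicate 3) for the partners and regulators, -0.13 (without HIF-1α-KD replicate 1) to 0.01 (without Mock replicate 2) for the heme pathway, and -0.20 (without Mock replicate 2) to -0.08 (without Mock replicate 1) for the glutathione, thioredoxin and peroxide enzymes.

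**Figure D4:**
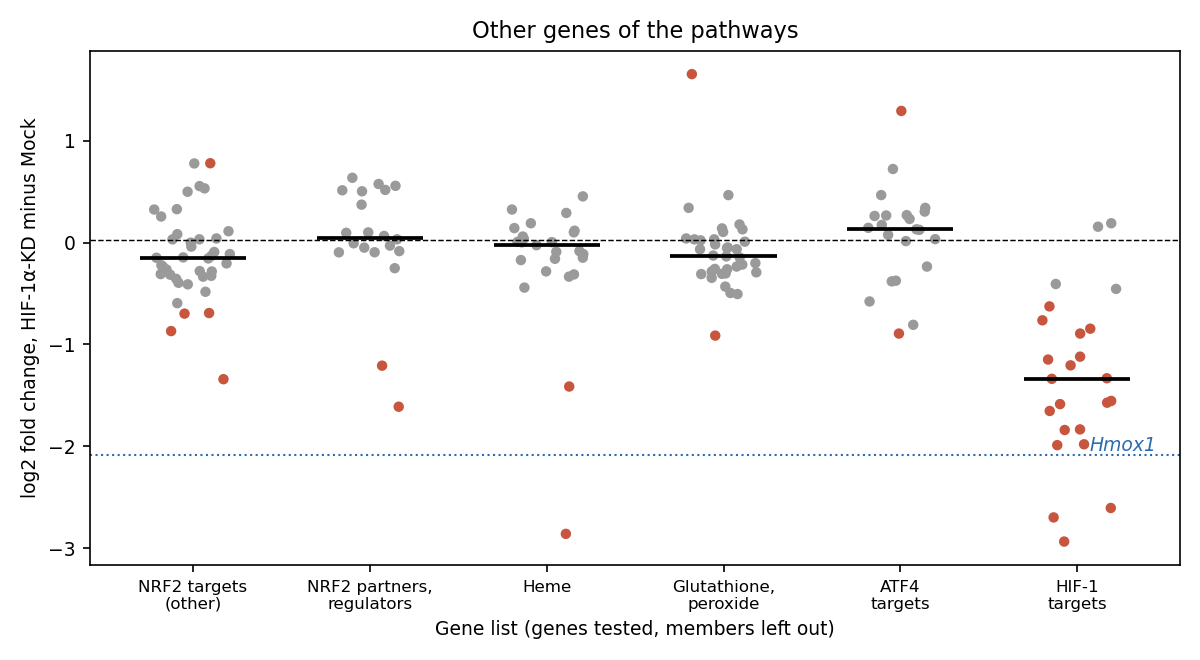
Log2 fold change, HIF-1α-KD minus Mock, of the tested genes of 6 lists that leave out the 10 members (points; red where unadjusted p was under 0.05 and the fold change at least 1.5; black bar, list median; dashed line, median of all tested genes; dotted line, Hmox1). The HIF-1 targets have their median at -1.33, and the medians of the other 5 lists lie between -0.15 and 0.14.

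Hmox1 is known to be strongly expressed by macrophages that digest red cells, so markers of other cells were read in the same libraries, although the methods lysed erythrocytes and the sort excluded CD45-positive cells. All 6 erythroid markers were in the table, 5 were tested and all 5 were lower by p and fold change, where 3.46% of all tested genes were. None of the 5 was called at an adjusted p under 0.05 in limma, and the groups of Hbb-bs and Alas2 overlapped. The summed FPKM of the 6 markers was 95.7, 43.4 and 83.3 in Mock replicates 1 to 3, and 8.78, 0.181 and 39.9 in HIF-1α-KD replicates 1 to 3. The erythroid sum and Hmox1 thus had the same libraries highest and lowest in the HIF-1α-KD group, and both were highest in Mock replicate 1. The hemoglobin genes among these markers are near-identical copies in pairs. The part of red cell material in the Hmox1 difference was not tested.

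Of 18 leukocyte markers 16 were tested, and none was lower or higher by p and fold change. Their summed FPKM was 202, 225 and 225 in Mock replicates 1 to 3. It was 121, 145 and 659 in HIF-1α-KD replicates 1 to 3, led by Lyz2, while the scavenger receptor gene Cd163 and the T cell gene Cd3e were at or near 0 in every library. HIF-1α-KD replicate 3, with the highest leukocyte sum, also had the highest Hmox1 value of its group, and without it the log2 fold change of Hmox1 was -2.38. In the other two HIF-1α-KD libraries the leukocyte sum was below that of every Mock library. The part of leukocyte RNA in the Hmox1 difference was not tested, and in sorted bulk RNA a change in the number of such cells and a change of RNA per cell cannot be told apart.

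Endothelial markers summed to between 9.59 and 11.2 FPKM in Mock and between 8.79 and 10.2 FPKM in HIF-1α-KD cells. By p and fold change 1 of 4 tested was lower, where 3.46% of all tested genes were. Fibroblast and pericyte markers summed to between 545 and 973 FPKM in Mock and between 421 and 710 FPKM in HIF-1α-KD cells, mostly from Dcn. By the same criterion 3 of 7 were higher, where 4.02% of all tested genes were. The part of these cell types in the values of the 10 genes was not tested.

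**Figure D5:**
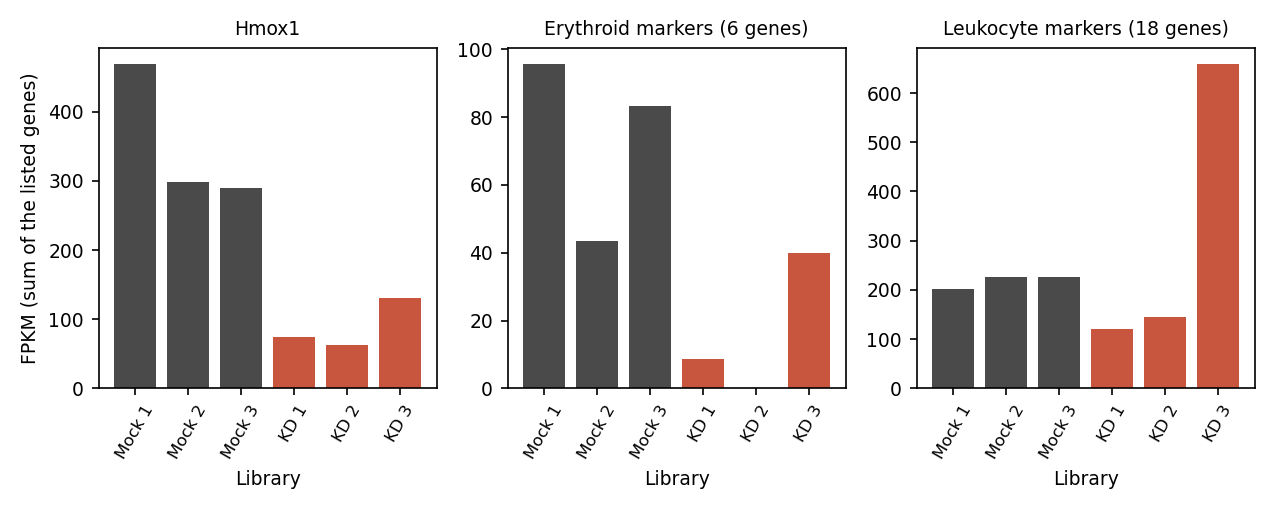
FPKM of Hmox1 (left), summed FPKM of 6 erythroid markers (middle) and of 18 leukocyte markers (right) in 3 Mock (grey bars) and 3 HIF-1α-KD (red bars) libraries, each panel with its own axis from 0. The erythroid sum is lower in all red bars than in all grey bars, as Hmox1 is; the leukocyte sum is highest, at 659, in HIF-1α-KD replicate 3.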

How the data were processed

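RNA of sorted MC-38GFP cells was measured in 3 Mock and 3 HIF-1α-KD libraries, grouped by the knockdown in their labels. The methods state read trimming, alignment with STAR and counting with featureCounts. The methods name GRCh38, whereas the labels name GRCm38 and the genes carry mouse identifiers. The library kit is stranded, and the strand setting of the counting is not given in the sources used here. The exons of 2 of the 10 genes share bases with another annotated gene, Keap1 with Gm16754 and Gclm with Gm17494 and Gm6061.

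The deposited normalized counts (a signal) are each gene's reads after division by 1 factor per library by the authors, and the deposited FPKM values use the gene width given by the authors. Deposited columns of the authors' own comparison (log2 ratio, p-value and false discovery rate, cluster) were not used. Reads recovered from the factors were whole for 100% of values up to 300 reads, within 0.1 read. They were used for the filter (filterByExpr, minimum count of 10, 12014 of 22880 genes kept) and for the count tests.

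The main test was limma 3.58.1, trend option on, applied to log2(normalized count + 1), two-sided, with Benjamini-Hochberg adjustment over all 12014 genes. The fold change on this scale understates that of low genes. The quasi-likelihood test of edgeR 4.0.16 on the recovered reads, which called 47 genes, and DESeq2 1.42.0 were alternatives, beside other scalings, filters, pseudocounts, a looser and a stricter fold threshold, a replicate block and leaving out each library. The script was tested on simulated data. R 4.3.3, Python 3.11.15, pandas 2.3.3, numpy 2.4.6 and matplotlib 3.10.9 were used.

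The genes described and all lists were chosen with earlier results of these data known. Beside the 10 genes and Hif1a, each list names its genes called at an adjusted p under 0.05, then those by p and fold change in order of p up to 4, and otherwise its 2 most abundant genes. Aox1 and, in the heme list, Hmox2, Blvra, Blvrb and Alas1 are named outside this rule. Of the 12 HIF-1 targets called, 3 are named, and 2 abundant genes each of the redox and heme annotations are not. The 5 genes nearest to Hmox1 are named too, and 1 gene the rule selects is not reported here. Gene positions are those of GENCODE vM21 (GRCm38).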

Additional observations from a re-analysis of the deposited data

How the results depend on the processing

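Hmox1 stayed lower by -2.38 to -1.84 on the log2 scale in every alternative run, and by -2.45 to -1.89 relative to the median log2 fold change of the 6 targets. The number of genes called at an adjusted p under 0.05 was 47 as reported and 283 with DESeq2. Without a single library it was between 0 and 38 (0 without Mock replicate 3, with 1444 genes at an unadjusted p under 0.05, and 0 without HIF-1α-KD replicate 2, with 1069). The replicate numbers were not treated as pairs: deviations of same-numbered libraries correlated at -0.14, -0.12 and 0.02. With a replicate block 0 genes were called in limma, 1324 at an unadjusted p under 0.05, and so 0 of the 10 genes described. Of these 10, between 0 and 1 were called without a single library (0 in every case except without HIF-1α-KD replicate 3, where 1 was), and between 1 and 2 passed by p and fold change, 2 without Mock replicate 1 or Mock replicate 3.

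The NRF2 targets outside the 10 had 4 lower and 1 higher genes by p and fold change. Lower genes numbered between 3 and 7 without a single library (7 without Mock replicate 3), 7 at a looser fold threshold and 1 at a fold change of at least 2. Higher genes numbered between 1 and 2 without a single library (2 without Mock replicate 1, HIF-1α-KD replicate 1 or HIF-1α-KD replicate 3) and 0 at a fold change of at least 2. The cause was not tested. With 3 libraries a group, a shift of the size of the standard errors of the 9 other genes (0.14 to 0.40) would not stand apart from the spread.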
